A study of Mus musculus with 12 samples.

Results

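BATF ChIP-seq peaks were examined at 10 genes that encode DNA-binding regulators of T cell identity, namely the Ikaros family genes *Ikzf1*, *Ikzf2*, *Ikzf3* and *Ikzf4*, the chromatin organizer genes *Satb1* and *Bcl11b*, the HMG-box genes *Tox* and *Tox2*, and the zinc-finger E-box repressor genes *Zeb1* and *Zeb2*. The rule names the genes by family and uses no peak value, and they are 10 of 21000 protein-coding genes with a curated RefSeq transcript on the mouse assembly GRCm38 (mm10). A peak was counted at a gene when its summit lay in the gene body or within 100 kb to either side of it. By this rule, 13 peaks at 7 of the 10 genes were found, and they merged into 11 separate regions of 5873 in the whole series. The same rule gave a peak at 43.9% of all protein-coding genes. The shares are not like for like, since the median body was 109.075 kb for the 10 genes and 16.724 kb for all genes. *Ikzf1*, *Tox* and *Tox2* had a peak in both cell types, *Bcl11b* had one in Th9 cells, *Ikzf2*, *Satb1* and *Zeb2* had peaks in Th17 cells, and *Ikzf3*, *Ikzf4* and *Zeb1* had no peak.

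Naive CD4+CD62L+ T cells of C57BL6/J mice were cultured to Th9 cells with IL-4, IL-2, TGF-β1 and anti-IFNγ, or to Th17 cells with IL-6, TGF-β1, IL-23, IL-1β and antibodies against IFNγ, IL-4 and IL-2, and were used on day 5 without restimulation. Each cell type had 2 BATF ChIP libraries, numbered 1 and 2 for Th9 and 3 and 4 for Th17, and the study compared where BATF binds in these cell types. The labels do not say whether the libraries of a cell type came from separate cultures or mice, and no library from cells lacking BATF was analysed here. Each library was called by the authors against its input library, against its IgG library and against both together, and the values below are those against both unless another control is named. The lists hold no expression values, so the cell types are as labelled.

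The Ikaros proteins are zinc-finger factors of the lymphoid lineage that recruit co-repressor complexes, and several of them are used to tell helper and regulatory T cells apart. SATB1 organizes chromatin loops in thymocytes, BCL11B is needed for T cell commitment, the TOX proteins act in thymic CD4+ selection and in persistently stimulated T cells, and the ZEB proteins repress genes through E-box elements. BATF is an AP-1 family factor that pairs with JUN proteins on the AP-1 element TGACTCA, which reads TGAGTCA on the opposite strand, and with IRF4 on composite elements called AICE. In the AICE2 form searched here, GAAA stands directly before the AP-1 element.

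The lists were of very unequal length, and this touches every count below. They held 1709 peaks in Th9 library 1 and 241 in Th9 library 2, against 4111 in Th17 library 3 and 199 in Th17 library 4. An AP-1 element lay within 100 bp of the summit in 14.9% and 31.1% of the Th9 peaks, and in 18.8% and 40.2% of the Th17 peaks. Fold enrichment, which compares the fragments at a summit with the background around it as a ratio, and −log10 q, which grows as the false discovery rate of a peak falls, also depend on the depth of a library, which the lists do not give. They were therefore ranked within a list only. A gene without a peak was below the threshold of the lists (a q of 0.01) and is not shown to be unbound.

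Of the 13 peaks at the 10 genes, 3 were in library 1, 1 in library 2, 8 in library 3 and 1 in library 4. Their fold enrichment ran from 5.02 to 10.2, their −log10 q from 3.15 to 13.0 and their width from 166 to 383 bp. As a share of its list, each library had 0.176%, 0.415%, 0.195% and 0.503% of its peaks at these genes, in the order of their numbers. The share was 0.295% ± 0.169 (SD, n = 2 libraries) in Th9 cells and 0.349% ± 0.218 (SD, n = 2) in Th17 cells. The difference of 0.0533 percentage points was smaller than the spread between libraries of 1 cell type (exact two-sided permutation test, p = 0.667, where the smallest p that 2 against 2 libraries allow is 0.333). Both short lists gave the higher shares and each of those rested on 1 peak, at *Tox* in library 2 and at *Ikzf1* in library 4.

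**Figure D1:**
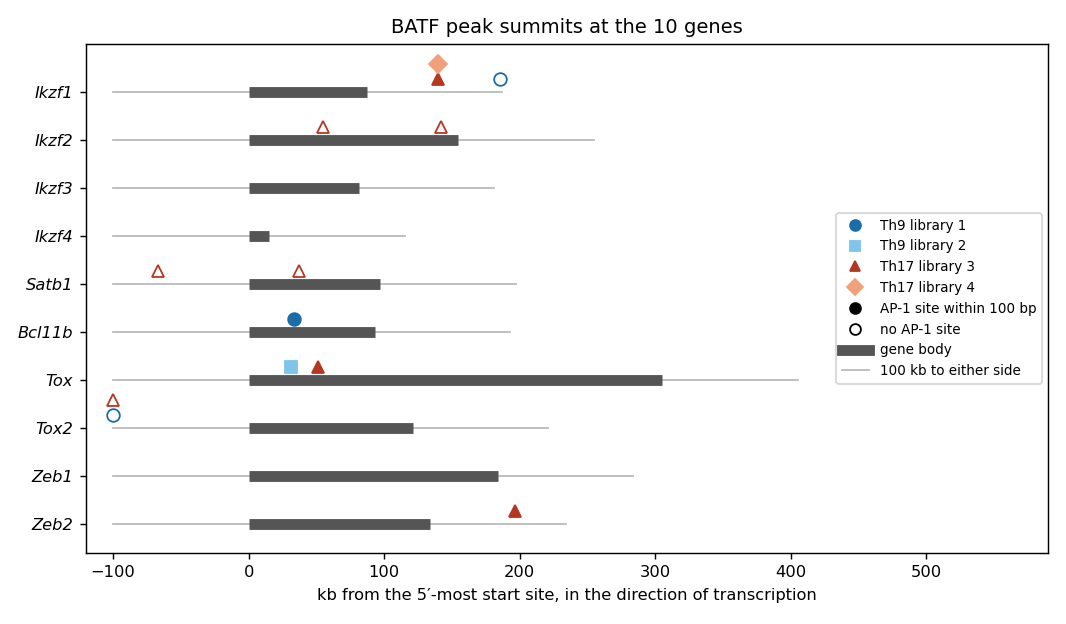
Each row is a gene drawn in its direction of transcription, with the distance from its 5′-most start site in kb on the horizontal axis, the gene body as a thick bar and the searched 100 kb to either side as a thin line. Circles and squares are summits of Th9 libraries 1 and 2, triangles and diamonds those of Th17 libraries 3 and 4, and filled symbols have an AP-1 site within 100 bp. Summits at *Ikzf2*, *Bcl11b* and *Tox* lie inside the gene, those at *Ikzf1* and *Zeb2* lie past its end, those at *Tox2* lie at the far edge of the window, and the rows of *Ikzf3*, *Ikzf4* and *Zeb1* are empty.

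*Ikzf1*, which encodes Ikaros, the founding member of its family, had 3 peaks, and it was the only one of the 10 genes with a region present in both libraries of 1 cell type. The gene lies on the plus strand at chr11:11685925-11772926. In Th17 library 3 the peak chr11:11825721-11825923 had a fold enrichment of 8.47 at a −log10 q of 9.30, which ranked 426 of 4111. In Th17 library 4 the peak chr11:11825793-11826013 had a fold enrichment of 6.48 at a −log10 q of 4.73, which ranked 132 of 199. These peaks shared 131 bp and their summits were 64 bp apart. Neither Th9 library had a peak that overlapped them. The site lay 52859 bp past the end of *Ikzf1* at the summit of library 3, inside intron 10 of *Ddc*, the gene for DOPA decarboxylase, and the nearest start site was that of *Fignl1*, 16823 bp away. The merged region of 293 bp is shown because both Th17 libraries called it and because it held 3 AP-1 sites. It is written as the plus strand of GRCm38, chr11:11825721-11826013, with the AP-1 sites in capitals.
Ikzf1 Th17 region: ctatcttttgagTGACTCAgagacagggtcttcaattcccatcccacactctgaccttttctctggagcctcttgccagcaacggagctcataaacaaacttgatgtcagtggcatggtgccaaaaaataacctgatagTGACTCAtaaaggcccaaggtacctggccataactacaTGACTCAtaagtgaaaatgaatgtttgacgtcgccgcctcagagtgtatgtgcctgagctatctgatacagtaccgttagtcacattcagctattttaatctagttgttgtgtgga
From left to right, 120 bases separated the first from the middle AP-1 site and 31 bases separated the middle from the last. The summit of library 3 lay between the first and middle sites, with their centres at −49 and +78 bp, and that of library 4 lay to the left of the middle and last sites, at +14 and +52 bp. None of the 3 sites was part of an AICE element.

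A Th9 peak was also counted at *Ikzf1*, from library 1 at chr11:11871292-11871457, with a fold enrichment of 5.02 at a −log10 q of 3.15, ranking 1085 of 1709. It had the lowest rank of the 3 peaks that library 1 had at these genes. Its summit was 98522 bp past the end of *Ikzf1*, near the edge of the window, in intron 4 of *Ddc*, and the start of *Ddc* was the nearest at 18960 bp. It had no AP-1 site, and it was the 1 peak of the 13 that was absent from the list called against input alone. The outermost summits of the Th9 and Th17 peaks at *Ikzf1* were 45663 bp apart. *Ikzf1* was thus counted in both cell types from separate sites, neither of them in the gene.

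*Ikzf2*, which encodes Helios, a factor common in regulatory T cells, had 2 peaks, both inside the gene and both in Th17 cells. The gene lies on the minus strand at chr1:69531207-69685960. Libraries 1, 2 and 4 had no peak there, and both of its peaks came from Th17 library 3. The peak chr1:69544257-69544511 had a fold enrichment of 10.2 at a −log10 q of 13.0 and ranked 197 of 4111. Its summit lay in intron 6 of *Ikzf2*, 141644 bp from the start site, with no other protein-coding gene in reach of 100 kb. A further peak, chr1:69630983-69631216 in intron 3, had a fold enrichment of 5.59 at a −log10 q of 4.12, ranked 1830 of 4111, and lay 54826 bp from the start. Neither held an AP-1 site, and none of the other motifs searched was found in them. The window around the stronger summit is printed because it ranked highest among the peaks of library 3 at the 10 genes and held no AP-1 site, a choice made after its values were seen (plus strand, chr1:69544216-69544416, with no capitals since no motif was found).
Ikzf2 Th17 summit: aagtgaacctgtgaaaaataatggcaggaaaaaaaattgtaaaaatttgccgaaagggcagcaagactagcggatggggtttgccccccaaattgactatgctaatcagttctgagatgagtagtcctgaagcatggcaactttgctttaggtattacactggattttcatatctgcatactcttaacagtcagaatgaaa

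*Ikzf3* (Aiolos, a family member linked to Th17 differentiation) and *Ikzf4* (Eos, a partner of FOXP3 in regulatory T cells) had no peak in any of the 4 libraries. *Ikzf3* lies on the minus strand at chr11:98464693-98546031 and *Ikzf4* on the minus strand at chr10:128630843-128645993. The closest summits were 556.105 kb from *Ikzf3* and 258.558 kb from *Ikzf4*, both in Th17 library 3 and both nearest to the start of another gene. *Ikzf4* had the shortest body of the 10 genes, 15.151 kb.

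*Satb1* lies on the minus strand at chr17:51736187-51833290 and had 2 peaks, both from Th17 library 3. The peak chr17:51796163-51796338 lay in intron 5, 15791 bp from the nearest *Satb1* start and 37027 bp from the 5′-most one. The peak chr17:51899852-51900046 lay 66650 bp upstream, in intron 1 of the long noncoding RNA gene *Gm20098*. They had the same fold enrichment of 5.08 and −log10 q of 3.32, and both ranked 2483 of 4111, an exact tie. Both were in the lower part of their list, and neither held an AP-1 site. Against input alone, the upstream peak fell to a fold enrichment of 3.91 at a −log10 q of 2.18, close to the threshold. No peak was called at *Satb1* in libraries 1, 2 and 4.

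*Bcl11b*, the T cell commitment factor, had a single peak, and it was in Th9 cells. The gene lies on the minus strand at chr12:107910403-108003414. In Th9 library 1, the peak chr12:107970128-107970338 had a fold enrichment of 7.55 at a −log10 q of 7.43 and ranked 182 of 1709. Library 2 of the same cell type and both Th17 libraries had none. The summit was in intron 2, 33227 bp from the start. Its window is shown because the AP-1 site, centred at −26 bp from the summit, formed part of an AICE2 element (plus strand, chr12:107970087-107970287, with the AICE2 element in capitals).
Bcl11b Th9 summit: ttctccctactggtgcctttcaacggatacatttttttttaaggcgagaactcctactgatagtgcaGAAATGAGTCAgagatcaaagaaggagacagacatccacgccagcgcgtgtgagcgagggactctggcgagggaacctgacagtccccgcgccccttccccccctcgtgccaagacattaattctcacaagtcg

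*Tox* had a peak in both cell types, at different places in the same intron. The gene lies on the minus strand at chr4:6686353-6991557 and is the longest of the 10, with a body of 305.205 kb. Th9 library 2 had the peak chr4:6960098-6960281, with a fold enrichment of 5.87 at a −log10 q of 3.68, ranking 154 of 241. Th17 library 3 had the peak chr4:6940611-6940781, with a fold enrichment of 5.65 at a −log10 q of 4.12, ranking 1830 of 4111. Libraries 1 and 4 had none. Both summits lay in intron 2, at 31416 bp and 50842 bp from the 5′-most start, and they were 19426 bp apart. Each held an AICE2 element, which is why both are printed, the Th9 one by a choice made after its values were seen. They are the plus strand of chr4:6960041-6960241 and chr4:6940615-6940815, with AICE2 in capitals and, in the Th17 window, an ETS element (ACAGGAA) in capitals to its right.
Tox Th9 summit: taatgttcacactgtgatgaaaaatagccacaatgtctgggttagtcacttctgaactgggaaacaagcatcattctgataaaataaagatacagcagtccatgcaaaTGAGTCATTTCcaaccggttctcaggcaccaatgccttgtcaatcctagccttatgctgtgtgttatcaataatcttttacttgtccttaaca
Tox Th17 summit: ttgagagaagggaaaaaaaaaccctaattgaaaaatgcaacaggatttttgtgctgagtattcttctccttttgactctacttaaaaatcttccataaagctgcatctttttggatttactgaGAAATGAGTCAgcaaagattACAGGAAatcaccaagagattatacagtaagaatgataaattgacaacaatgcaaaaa
The AP-1 site was centred 11 bp to the right of the Th9 summit and 30 bp to the right of the Th17 summit. In the Th9 window the AICE2 element reads on the minus strand, so that its AP-1 part comes first as printed.

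*Tox2*, a relative of *Tox* expressed in follicular helper T cells, was the only gene with a region called in both cell types, but the region stood at the very edge of the window. The gene lies on the plus strand at chr2:163203127-163324172. In Th9 library 1 the peak chr2:163103123-163103505 had a fold enrichment of 9.06 at a −log10 q of 10.7, ranking 78 of 1709. In Th17 library 3 the peak chr2:163103316-163103486 had a fold enrichment of 7.90 at a −log10 q of 8.14, ranking 540 of 4111. They shared 171 bp and their summits were 62 bp apart. The summits were 99822 bp and 99760 bp upstream of *Tox2*, only 178 bp and 240 bp inside the limit of the rule, between genes. *Gtsf1l* had the nearest start, 13704 bp from the Th9 summit, and *Ift52*, *Mybl2* and *Sgk2* also lay within 100 kb. Its window is printed because the region was called in both cell types and held no AP-1 site (plus strand, chr2:163103205-163103405 around the Th9 summit, with no capitals since no motif was found there).
Tox2 shared region: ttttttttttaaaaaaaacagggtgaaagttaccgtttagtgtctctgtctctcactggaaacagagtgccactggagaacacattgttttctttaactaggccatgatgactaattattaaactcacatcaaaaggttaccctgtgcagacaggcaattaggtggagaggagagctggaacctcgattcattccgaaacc
A RUNX element (TGTGGTT) lay 63 bp to the right of the Th17 summit, just past the end of the printed window. Libraries 2 and 4 had no peak at *Tox2*.

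*Zeb2*, a repressor that marks terminally differentiated effector T cells, had 1 peak, in Th17 library 3. The gene lies on the minus strand at chr2:44983512-45117442. The peak chr2:44920376-44920643 had a fold enrichment of 7.34 at a −log10 q of 7.04 and ranked 727 of 4111. It lay 62931 bp past the end of *Zeb2*, in intron 1 of *Gtdc1*, and the *Gtdc1* start was 6655 bp away, the only start within 10 kb of any of the 11 regions. Against input alone it had a fold enrichment of 6.96 at a −log10 q of 6.55. The window is shown for its pair of AP-1 sites, printed in capitals (plus strand, chr2:44920481-44920681).
Zeb2 Th17 summit: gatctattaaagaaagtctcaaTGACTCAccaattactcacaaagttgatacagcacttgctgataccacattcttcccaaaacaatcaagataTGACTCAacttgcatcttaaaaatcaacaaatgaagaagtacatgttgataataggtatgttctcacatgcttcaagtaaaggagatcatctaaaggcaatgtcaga
The AP-1 sites were centred at −75 and −3 bp from the summit, with 65 bases between them.

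*Zeb1*, which encodes a repressor of *Il2*, lies on the plus strand at chr18:5591860-5775468 and had no peak in any library. The summit closest to it was 169.79 kb past its end, in Th17 library 3.

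**Figure D2:**
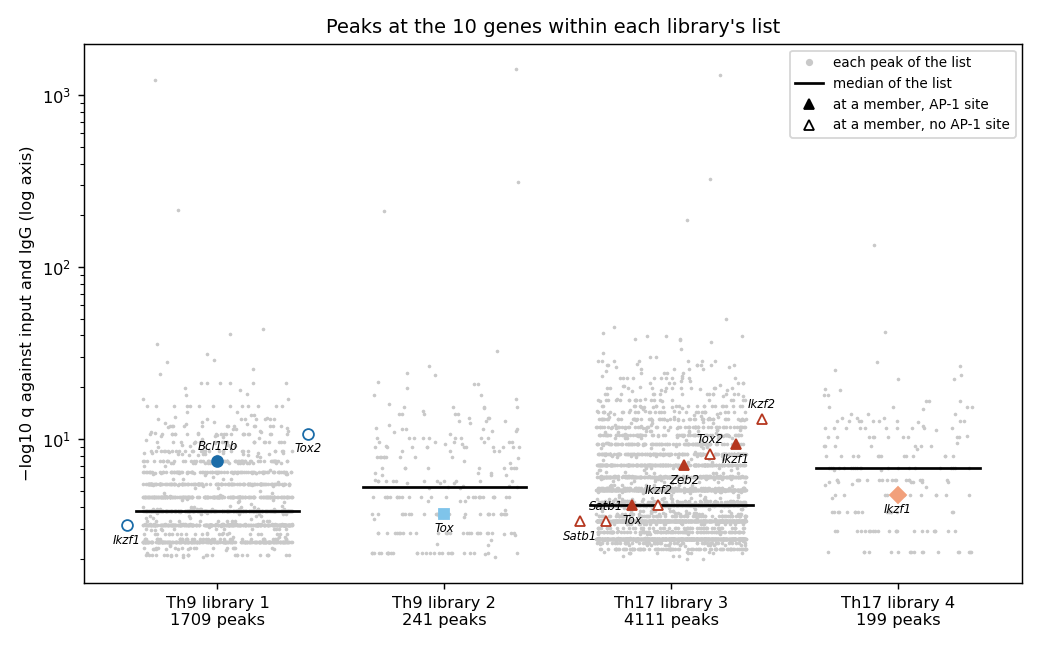
Each grey point is a peak of the list named below it, with −log10 q on a logarithmic vertical axis and the median as a black line. Coloured symbols are the peaks at the 10 genes, filled where an AP-1 site lies within 100 bp. *Tox2* in library 1 and *Ikzf2* in library 3 have the highest −log10 q of the coloured symbols in their lists, at 10.7 and 13.0, while the single peaks of library 2 (*Tox*) and library 4 (*Ikzf1*) lie below the medians of their lists.

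By −log10 q, the 13 peaks ranked from the top 4.56% of their list (*Tox2* in library 1) to the top 66.3% (*Ikzf1* in library 4). The median −log10 q was 3.82, 5.24, 4.12 and 6.81 in libraries 1 to 4. Among the 13 peaks, 6 had a −log10 q of at least 5, at *Ikzf1*, *Ikzf2*, *Bcl11b*, *Zeb2* and *Tox2*, the last in both of its libraries. The share of all peaks that reached this value was not counted, so the 6 describe these peaks only. By rank, 2 were in the top 10% of their list, the stronger *Ikzf2* peak and the Th9 peak at *Tox2*. The *Ikzf1* Th17 site, although called in both libraries, was in the lower part of the list of library 4.

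Against all protein-coding genes, the 10 genes had a peak more often in each cell type, but they are also long. A Th9 peak was counted at 4 of the 10 genes, against 16.9% of 21000 genes, and a Th17 peak at 6 of 10, against 35% of all genes. Both cell types had a peak at 3 of 10, against 7.97%, and either had one at 7 of 10, against 43.9%. With only gene bodies searched, 4 of 10 genes (*Ikzf2*, *Satb1*, *Bcl11b* and *Tox*) had a peak, against 9.53% of all genes. The median body was 109.075 kb for the 10 genes and 16.724 kb for all genes, so these shares are not like for like. Per Mb searched, the windows held 1.22 Th9 regions and 2.44 Th17 regions, against 0.689 and 1.54 over the genome. The genome values divide by the whole assembly of 2725.52 Mb, and the density in the windows of all genes was not counted. The 6 regions inside the bodies came to 4.72 per Mb, against 2.60 per Mb in the bodies of all protein-coding genes. These counts rest on 11 regions, so they describe this set and were not tested.

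Most sites belonged to 1 library. Of the 11 regions, 3 were called in Th9 cells only, 7 in Th17 cells only and 1, at *Tox2*, in both. Overlap with a Th17 region was seen for 1 of the 4 Th9 regions, against 11.2% of all Th9 regions. Regions called in at least 2 libraries numbered 2 of 11, at *Ikzf1* and *Tox2*, against 4.73% of all regions. Of the 13 peaks, 8 came from library 3, which had the longest list, and without it the only Th17 peak at the 10 genes was that at *Ikzf1* in library 4. Without library 1, the only Th9 peak was that at *Tox*. The length of the list and the cell type cannot be told apart in the counts of genes per cell type. With every list cut to its 199 top peaks, 3 genes and 3 regions remained in Th9 cells, against 2 genes and 2 regions in Th17 cells. No gene then had both, and the order of the cell types turned. At this cut, that order rested on the *Bcl11b* peak of library 1. Its −log10 q was shared by all peaks from rank 182 to just before rank 237. The cut thus fell inside a tie, which was broken by −log10 p and then by position. Without this peak the cell types would have equal numbers at this cut. The Th17 count was also near the cut, since the *Ikzf2* peak of library 3 ranked 197. Other list lengths were not tried. With −log10 q of at least 5, the genes numbered 2 in Th9 and 4 in Th17 cells, with *Tox2* as the 1 gene in both. The shares over all genes were not counted with these cuts.

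Read by site, most of the 11 regions lay in introns. The summit lay in an intron of the gene itself in 6 regions, in an intron of a neighbouring gene in 4 (*Ddc* for both *Ikzf1* sites, *Gtdc1* for *Zeb2* and *Gm20098* for *Satb1*), and between genes at *Tox2*. None lay in a promoter or an exon. The shares of introns, promoters and exons over all regions were not counted, so these numbers describe the 11 regions only. The bodies of protein-coding genes held 2539 of all 5873 regions. A start site of any protein-coding gene was within 10 kb of 1 of the 11 regions, against 18.3% of all regions. With so few regions this difference was not tested. The nearest start was that of the counted gene in 7 regions, those at *Ikzf2*, *Satb1*, *Bcl11b* and *Tox*, and that of another gene at *Ikzf1*, *Tox2* and *Zeb2*. Repeat-masked bases made up 0% to 24.4% of the summit windows, where the median of all regions was 13.4% and 16.8% of them were more than 50% masked. The GC content ran from 30.8% at the weaker *Ikzf2* site to 52.7% at *Bcl11b*, around a median of 41.3% in all regions.

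**Figure D3:**
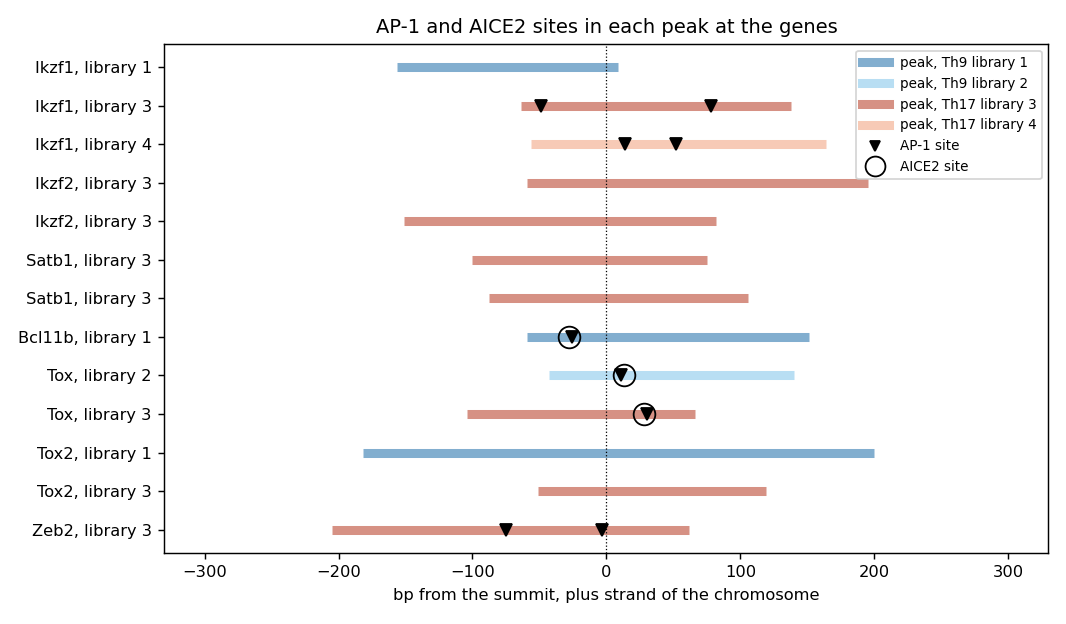
Each row is a peak, named by gene and library, with the distance from its summit in bp along the plus strand on the horizontal axis. Coloured bars span the peaks, black triangles are centres of AP-1 sites within 100 bp of the summit, and open circles are centres of AICE2 elements. The *Ikzf1* Th17 peaks and the *Zeb2* peak hold pairs of AP-1 sites, *Bcl11b* and both *Tox* peaks hold 1 AP-1 site inside AICE2, and the peaks at *Ikzf2*, *Satb1* and *Tox2* hold none.

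An AP-1 site lay within 100 bp of the summit in 5 of the 11 regions, or 45.5% (exact 95% binomial interval 16.7% to 76.6%, counting error only), against 17% of all regions. By cell type these were 2 of the 4 Th9 regions and 3 of the 8 Th17 regions. In equally wide flanking windows, 2000 bp to the left and right of each summit, an AP-1 site was found in 0 of 22, against 3.42% of such windows around all regions. At a rate this low, 0 of 22 is a common outcome, so it does not set these regions apart from others. The AP-1 element sat within 30 bp of a summit at *Ikzf1* (library 4), *Bcl11b*, *Tox* in both cell types and *Zeb2*. Within library 3, the peak of highest rank at these genes, at *Ikzf2*, and those of lowest rank, at *Satb1*, had no AP-1 site. The region shared by both cell types, at *Tox2*, had none either.

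AICE2 was found in 3 of the 11 regions, against 0.817% of all regions, and in 3 of the 5 regions with an AP-1 site, against 4.81% of all regions with one. These were the intronic sites at *Bcl11b* and *Tox*, 2 from Th9 libraries and 1 from Th17 library 3. The Th17 sites at *Ikzf1* and *Zeb2*, in introns of neighbouring genes, had pairs or a triplet of AP-1 sites but no AICE element. The sites in introns of *Ikzf2* and *Satb1* themselves had neither an AP-1 site nor an AICE element. AICE1, in which TTTC stands 4 bases before an AP-1 element, was in none of the 11, against 0.562% of all regions. The other elements were read on both strands. A STAT element (TTCNNNGAA) was in none, against 8.87%, RUNX (TGTGGTT) in none at the summit of highest −log10 q of a region, against 7.20%, ETS (ACAGGAA or ACCGGAA) in 1, at *Tox* in Th17 cells, against 8.41%, and the interferon response element (GAAA and, after 2 bases of any kind, GAAA again) in none, against 3.80%. The looser AP-1 form TGANTCA was found in the same number, 5, against 20.7% of all regions. With 11 regions, a motif in none of them is a description of these windows only.

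**Figure D4:**
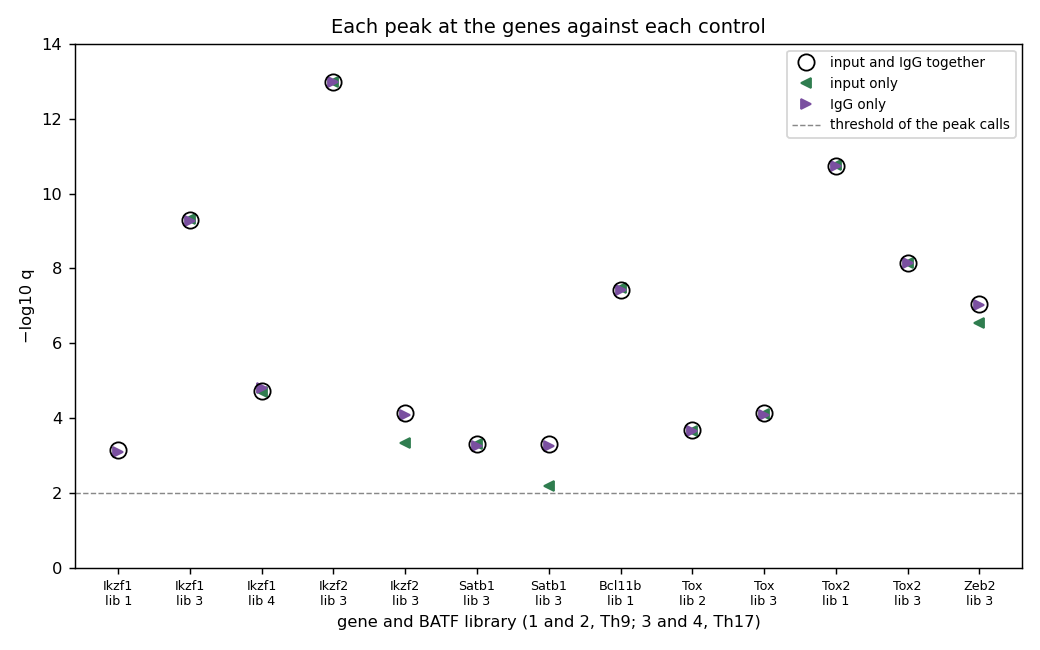
The vertical axis is −log10 q of each of the 13 peaks, named by gene and library, in the list called against input and IgG together (open circles), input only (left-pointing triangles) and IgG only (right-pointing triangles), with the calling threshold dashed. The values nearly coincide for most peaks. The input-only value is lower at the weaker *Ikzf2* peak, the upstream *Satb1* peak and *Zeb2*, and missing for the Th9 peak at *Ikzf1*.

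The choice of control had little bearing on these sites. Of the 13 peaks, 12 were present in both single-control lists, against 69.1% of all 6260 peaks. All 13 were called against IgG alone and 12 against input alone. No peak at the 10 genes appeared in a single-control list only. The weaker *Ikzf2* peak had a fold enrichment of 4.98 at a −log10 q of 3.34 against input alone, and 5.65 and 4.07 against IgG alone. For the *Ikzf1* peaks of Th17 cells, the −log10 q was 9.31 and 9.26 in library 3 and 4.69 and 4.79 in library 4 against input and IgG.

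The sites nearest to the windows show how the limit of 100 kb acted. *Ikzf1* had a Th9 peak 119.287 kb upstream, from library 1, with a fold enrichment of 6.04 and an AP-1 site, which was not counted. For *Satb1*, *Bcl11b*, *Zeb2*, *Tox*, *Tox2* and *Ikzf2* the next summits were 237.246 kb to 853.848 kb away. With 200 kb searched, *Zeb1* gained its Th17 site, which raised the genes with a Th17 peak from 6 to 7. With 50 kb searched, *Ikzf1*, *Tox2* and *Zeb2* lost all their peaks, and the genes numbered 2 in Th9, 3 in Th17 and 1, *Tox*, in both. The shares over all genes were not counted at these windows.

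Genes related to the 10 were counted in the same way. None of 4 paralogs outside the set (*Ikzf5*, *Bcl11a*, *Tox3* and *Tox4*) had a peak in either cell type. None of the 3 NR4A genes, *Nr4a1*, *Nr4a2* and *Nr4a3*, which encode nuclear receptors that act beside TOX in stimulated T cells, had one. Among 9 genes for co-repressors of the NuRD, CoREST and CtBP kind, 5 had a peak, against 43.9% of all genes in either cell type. These were *Chd4* and *Rcor1* in Th9 library 1 and *Hdac2*, *Mta1* and *Mta2* in Th17 library 3. None of these peaks lay inside the counted gene. The *Chd4* peak was in intron 2 of *Gapdh*, the *Rcor1* peak in the promoter of *Traf3*, and the *Mta2* peak in intron 1 of *Ahnak*. *Mta2* was the only one with an AP-1 site, with a fold enrichment of 6.39 at a −log10 q of 6.02. The *Hdac2* peak was the only one of these whose nearest start was that of the counted gene, 37678 bp away, and it had a fold enrichment of 4.52 at a −log10 q of 2.60. In all, 2 of the 16 related genes had a Th9 peak and 3 a Th17 peak, against 16.9% and 35% of all genes. A peak in either cell type was counted at 5 of the 16, against 43.9%. The groups are too small to be compared with each other.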

How the data were processed

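BATF ChIP-seq libraries of Th9 and Th17 cells (2 each) were used. The authors used Bowtie2 for alignment to mm10, and MACS2 for peaks (version 2.1.0 in the submitters' processing notes) with a q threshold of 0.01. The deposited lists give each peak's fold enrichment (a ratio), −log10 p-value, −log10 q-value and summit offset. There are 12 lists, each library against input, IgG and both together, and the control is known from the list's name only. The lists hold no counts, so the depth per library is unknown and the number of peaks limits the precision.

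Summits were placed on curated transcripts of RefSeq annotation release 108.20200622 (GRCm38.p6). Peaks sharing 1 bp were merged into regions. Motifs were searched on both strands within 100 bp of the summit, and a region was read at its summit of highest −log10 q. AICE elements contain an AP-1 site and are counted under both. All sequences are RefSeq's GRCm38.p6 sequence.

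The members, related genes and motifs were chosen with earlier results of these data known. The rule named all 10 members and 16 related genes, with 1 further item not reported here, and other genes only as the nearest start or the site of a peak. The genes printed as just outside a window, and the sequences said to be chosen afterwards, are exceptions. Sequences otherwise were those of regions called in 2 libraries or of a gene's strongest peak with an AP-1 site. Cell types were compared through the share of peaks, by an exact permutation test (two-sided). Its p-value sets the difference against the spread between these libraries, which may be technical. Counts and shares were described beside the same over all genes or regions. Alternatives were single controls, a minimum −log10 q of 5, regions in both libraries of a cell type, equal list lengths, other windows, nearest starts, GENCODE vM21 gene bodies, other motif and overlap settings, and each library left out. The calculations were tested on simulated data. The tools were pysam 0.24.0, scipy 1.17.1, pandas 2.3.3, matplotlib 3.10.9 and numpy 2.4.6 under Python 3.11.15.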

Additional observations from a re-analysis of the deposited data

How the results depend on the processing

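The counts at the 10 genes depended on library, strength and window. In the order genes with a Th9 peak, genes with a Th17 peak, genes with both, Th9 regions, Th17 regions and Th9 regions overlapping a Th17 region, the reported values were 4, 6, 3, 4, 8 and 1. With −log10 q of at least 5, the values that moved beyond 1.5 times were 2 Th9 genes, 1 gene with both, and 2 Th9 and 4 Th17 regions. Regions that both libraries of 1 cell type called gave 0, 1 and 0 genes, 0 and 1 regions and an overlap of 0. Lists cut to an equal number of top peaks gave 3 Th9 and 2 Th17 genes and 0 genes with both. They held 3 Th9 and 2 Th17 regions and an overlap of 0. This turned the order of the cell types, which at this cut rested on the tied *Bcl11b* peak. The *Ikzf2* peak in the Th17 count was also close to the cut. Within 10 kb and within 50 kb there were 2, 3 and 1 genes, 2 and 4 regions and an overlap of 0. With nearest starts only there were 2, 3 and 1 genes, 2 and 5 regions and an overlap of 0. A 50% reciprocal overlap left 0 regions shared by the cell types. The shares over all genes or regions were not counted under these alternatives.

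The share of regions with an AP-1 site, 45.5%, was 100% for regions called in both libraries, which is the single *Ikzf1* region. The difference in the share of peaks between Th17 and Th9 cells, 0.0533 percentage points, changed sign to −0.0761 with −log10 q of at least 5, to −0.251 with equal numbers of top peaks, to −0.188 within 10 kb and within 50 kb, and to −0.176 with nearest starts only. The value with equal numbers of top peaks rested on the tied *Bcl11b* peak, with the *Ikzf2* peak of library 3 also close to the cut. Leaving out each library in turn gave 1 to 4 Th9 genes, 1 to 6 Th17 genes, 1 to 3 genes with both, 1 to 4 Th9 and 1 to 8 Th17 regions, an overlap of 0 to 1, an AP-1 share of 40.0% to 60.0% and a difference of −0.101 to 0.207 percentage points, with −0.0664 without Th9 library 1 and −0.101 without Th17 library 4. The lists against input only or IgG only, a window of 200 kb, other motif settings and gene bodies from GENCODE vM21, an alternative chosen after seeing the data, moved no total count beyond 1.5 times and kept the sign of the difference where they gave one. Among the counts of single genes under all alternatives, 231 stayed and 49 moved. Many that stayed were counts of 0, as at *Ikzf3* and *Ikzf4* in both cell types. Most alternatives can only remove peaks, so a count of 0 could hardly move and this tally does not measure stability. The causes of these shifts were not tested, apart from the fewer peaks or libraries that some alternatives hold by construction. No paired analysis was possible because no library number occurs in both cell types (1 and 2 in Th9, 3 and 4 in Th17).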
